A study of Mus musculus with 9 samples.

Results

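Microglia and phagocyte genes, 39 in all, were followed in whole retinas of mice at postnatal day 8 that lacked Rb, or Rb together with p107. Of the 39 genes 38 were measured, among 24259 genes with 1 representing probe set each, and Spp1 was not analysed here. The genes were taken by symbol from a fixed list: ligands and receptors of the CSF1R axis, homeostatic microglial genes, pan-myeloid genes, complement C1q and other phagocytic genes, disease-associated genes, and chemokines. There were 3 arrays of wild-type retina (WT), 3 of Rb knockout retina (Rb KO) and 3 of Rb/p107 double knockout retina (DKO below). All came from the C57Bl/6x129SvJ background, and per the series text each array holds a separate biological replicate. Arrays are numbered 1 to 3 within a group by replicate. The labels give neither the promoter or Cre that deleted Rb nor the share of retinal cells that lost it.

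Microglia are the resident macrophages of the retina. They settle there before birth, live on signalling through the CSF1 receptor, which neuronal IL-34 and CSF1 activate, and clear the cells that die in the first postnatal weeks. Resting cells carry homeostatic genes such as Cx3cr1 and Tmem119. Cells that engulf debris load the lysosome (Cd68, Lyz2), tag targets with C1q and signal through TREM2 and its adaptor TYROBP, and near degenerating neurons many take on a disease-associated program with Apoe, Lpl, Itgax, Clec7a and Gpnmb.

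Of 9 phagocytic genes 6 rose in Rb KO and 7 in DKO, where 10.2% and 12.2% of all genes rose. C1qb, a chain of the complement starter C1q, was at least 2.19-fold higher in Rb KO and at least 2.45-fold higher in DKO than in WT, and the lysosomal gene Cd68 was at least 1.3-fold and at least 2.05-fold higher. Of 9 homeostatic genes 4 rose in Rb KO and 2 in DKO, and Tmem119, Gpr34 and Siglech passed the test in neither mutant. Mmp12, Clec7a and Ccl3, above background on no array, rose in DKO against WT and also against Rb KO. Ly86 rose in Rb KO and was lower in DKO than in Rb KO. None of these 4 calls between the mutants held in every alternative fit, such as those leaving out 1 array. Il34, the neuronal ligand of the CSF1 receptor, and Igf1 fell in both mutants.

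The values are log2 intensities, and most of these genes read low. A gene was taken as above background on an array where it exceeded the 95th percentile of that array's negative control probe sets. The percentile was 7.94 on WT array 2 and 8.16 to 8.5 on the other arrays. C1qb, Ly86, Igf1, Csf1r and Axl exceeded it in WT on array 2 alone. Only Apoe, Cd9 and Cd63 were above it on all 9 arrays, 8 genes on 1 to 8 arrays, and 27 of the 38 on no array, against 61.9% of all genes on no array. Of the defining microglial markers, Cx3cr1, Tmem119, Aif1, Siglech and Gpr34 were above background on no array, and Csf1r on 5 arrays. For genes not above background in either group a difference is one between readings, whose size in fold was not measured. Where the lower group alone was not above background, or above it on 1 of its 3 arrays (C1qb and Ly86 in WT), "at least" gives the mean of the higher group against whichever was higher on each lower array, its percentile or its reading. Rods, the most numerous retinal cells, were present by their markers, with 6 of 6 measured markers above background in every group, although all 6 fell in both mutants. In a whole tissue, more phagocytes and more RNA per phagocyte cannot be told apart.

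DKO array 2 stood apart from the other arrays. Its Xist intensity was 5.47, against 11.44 to 12.15 on the other 8, and its lens markers summed to 12.98 on the log2 scale, against 11.08 and 11.23 on the other DKO arrays and 10.51 to 11.01 on the WT and Rb KO arrays. Rb1, the targeted gene, read 10, 10.19 and 10.46 on the WT arrays, 9.85, 10.02 and 9.86 on those of Rb KO, and 9.74, 10 and 9.85 on those of DKO, which does not show how much of the gene was lost. Rbl1, the gene of p107, was not analysed here.

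In Rb KO against WT 12 of the 38 genes rose, 2 fell and 24 did not pass (limma, Benjamini-Hochberg adjusted p under 0.05 over all genes). Among all 24259 genes 10.2% rose and 14.3% fell. The median log2 difference was 0.20 over the 38 genes and -0.05 over all genes. In DKO against WT 16 rose, 2 fell and 20 did not pass, with a median of 0.30, while 12.2% of all genes rose and 17.1% fell and their median was -0.06. These comparisons share the WT arrays, so their values are given side by side and are not independent. The counts were also split by signal. Of the 29 genes above background on no WT or Rb KO array 8 rose in Rb KO (27.6%), against 5.53% of all such genes, and of the 9 others 4 rose (44.4%), against 17.8%. In DKO the shares were 12 of 27 (44.4%) against 6.62%, and 4 of 11 (36.4%) against 21.3%.

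**Figure D1:**
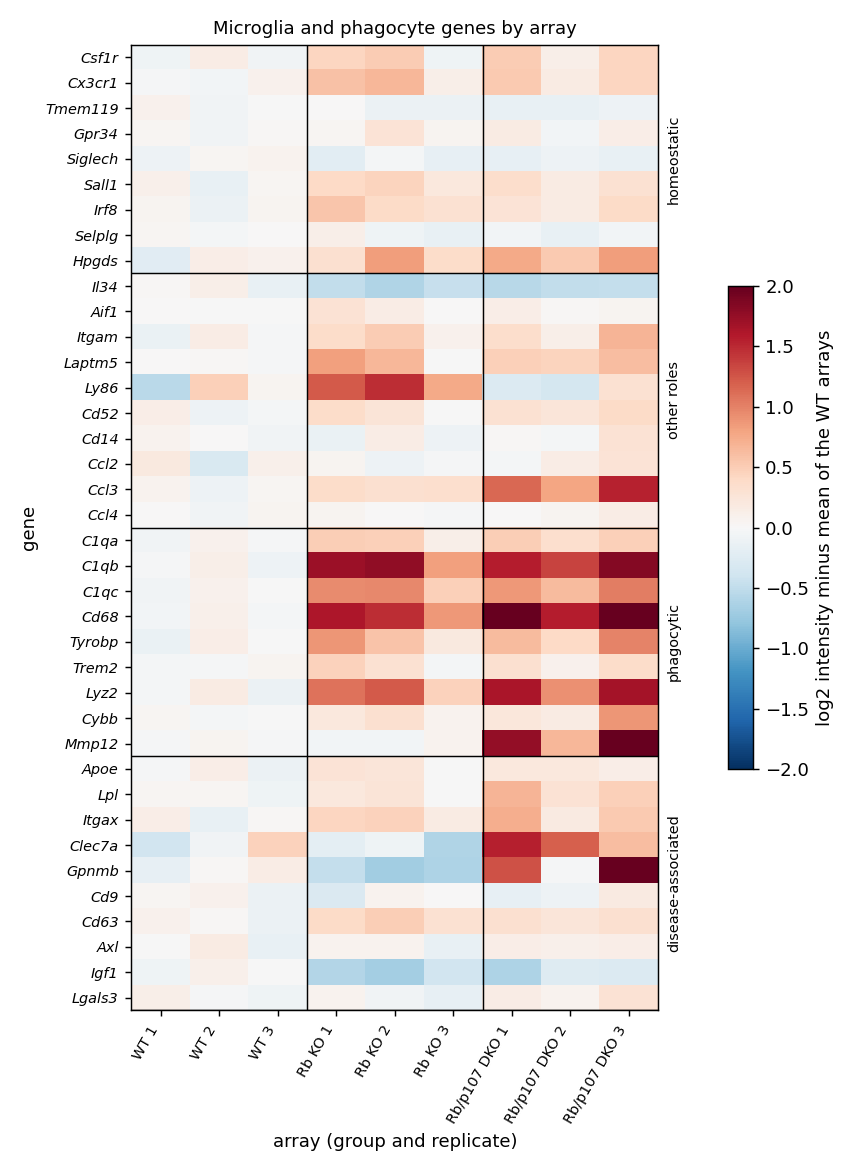
Heat map of the 38 measured genes (rows, grouped by subset) on the 9 arrays (columns), coloured by log2 intensity minus the mean of the 3 WT arrays, from blue (lower) to red (higher), with colours saturating at the ends of the scale. The C1q genes, Cd68 and Lyz2 are red on all mutant arrays, Ccl3 is pale red in Rb KO and darker in DKO, Mmp12 is red on the DKO arrays, and most phagocytic rows are palest within their group on Rb KO array 3 and DKO array 2.

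Il34 encodes the ligand through which neurons sustain microglia. It read 6.70, 6.79 and 6.53 on the WT arrays, 6.18, 6.07 and 6.21 on those of Rb KO, and 6.12, 6.18 and 6.20 on those of DKO. Every mutant array lay below every WT array, and the mutants overlapped. The log2 difference was -0.52 (SE 0.083, adjusted p = 0.00112) in Rb KO and -0.51 (SE 0.083, adjusted p = 0.00102) in DKO, all of it among readings not above background. Ganglion cell markers, 9 measured, also fell for 7 genes in Rb KO and 8 in DKO (medians -0.63 and -0.64), where 14.3% and 17.1% of all genes fell. Ebf1, 1 of these markers, rose in both (0.76 and 0.84). Endothelial markers fell for 7 and 8 of 9 (medians -0.68 and -0.88). They summed to 12.32 to 12.51 in WT, 12.22 to 12.34 in Rb KO and 12.13 to 12.17 in DKO on the log2 scale. The part of both marker lists in the Il34 and Igf1 values was not tested. Csf1r, the receptor, read 8.07, 8.31 and 8.09 on the WT arrays, 8.58, 8.66 and 8.07 on those of Rb KO, and 8.66, 8.28 and 8.58 on those of DKO. The groups overlapped, and it did not pass in Rb KO (0.28, SE 0.155, adjusted p = 0.234) or in DKO (0.35, SE 0.155, adjusted p = 0.119). Csf1r passed in Rb KO without Rb KO array 3 (0.46, adjusted p = 0.0247) and in DKO without that array (adjusted p = 0.0415).

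Of the 8 microglial identity genes, 4 rose in Rb KO and 2 in DKO, and none fell. Among all genes 10.2% rose in Rb KO and 12.2% in DKO. Among all genes above background on no array of these comparisons 5.53% and 6.62% rose. Cx3cr1, the fractalkine receptor, read 7.36, 7.33 and 7.48 on the WT arrays, 7.97, 8.06 and 7.51 on those of Rb KO, and 7.92, 7.55 and 7.82 on those of DKO. No mutant array overlapped WT, although Rb KO array 3 came within a few hundredths of it. The difference was 0.45 (SE 0.141, adjusted p = 0.0379) in Rb KO and 0.38 (SE 0.141, adjusted p = 0.0693) in DKO, where it passed once Rb KO array 3 or DKO array 2 was left out (0.0214 and 0.038). Irf8, a transcription factor that microglia need, read 6.79, 6.63 and 6.80 on the WT arrays, 7.30, 7.12 and 7.05 on those of Rb KO, and 7.01, 6.90 and 7.13 on those of DKO, again without overlap with WT. It rose in Rb KO (0.42, SE 0.093, adjusted p = 0.00755) and in DKO (0.27, SE 0.093, adjusted p = 0.0468), and DKO stood at -0.15 from Rb KO without passing (95% interval -0.35 to 0.06).

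Hpgds, the prostaglandin D synthase of microglia, read 6.07, 6.44 and 6.39 on the WT arrays, 6.62, 7.14 and 6.66 on those of Rb KO, and 7.06, 6.82 and 7.14 on those of DKO. It rose in both, by 0.51 (SE 0.150, adjusted p = 0.0303) and 0.71 (SE 0.150, adjusted p = 0.00472). Sall1, a microglial identity factor with other roles in development, read 6.83, 6.58 and 6.76 on the WT arrays, 7.12, 7.17 and 6.93 on those of Rb KO, and 7.07, 6.88 and 7.03 on those of DKO. It passed in Rb KO (0.35, SE 0.094, adjusted p = 0.0203) and not in DKO (0.27, adjusted p = 0.0552), except without WT array 1 or Rb KO array 3 (0.0491 and 0.0489) or with array median centring (0.0383). The other identity genes, Tmem119, Gpr34, Siglech and Selplg, lay between -0.14 and 0.13 in both comparisons, and none passed. All 8 identity genes, also the 4 that rose, were above background on no array, so the sizes of the rises were not measured. A change in the 4 that did not pass may not have been detectable. The Rb KO calls ended for Cx3cr1 without any WT array, Rb KO array 1 or 2 or DKO array 3 (adjusted p = 0.0528 to 0.147), for Sall1 without Rb KO array 1 or 2 (0.0666 and 0.0827) and for Hpgds without WT array 1 or Rb KO array 2 (0.113 and 0.106). The Irf8 call in DKO ended without any WT array, Rb KO array 2 or DKO array 1 or 3 (adjusted p = 0.0584 to 0.176).

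Pan-myeloid genes mark macrophages of every state. Of these 6 genes, 1 rose in Rb KO and 2 in DKO, where 10.2% and 12.2% of all genes rose. Ly86, which encodes the partner MD-1 of a Toll-like receptor homologue, differed between the mutants. Its readings were 7.20, 8.22 and 7.80 on the WT arrays, 8.97, 9.22 and 8.50 on those of Rb KO, and 7.46, 7.39 and 8.05 on those of DKO, so that all Rb KO arrays lay above all others and DKO overlapped WT. WT was above background on 1 of 3 arrays. Ly86 rose in Rb KO (1.16, SE 0.265, adjusted p = 0.00888, at least 1.58-fold) and did not pass in DKO (-0.11, SE 0.265, adjusted p = 0.804). Laptm5, a lysosomal membrane gene of blood-derived cells, read 6.83, 6.84 and 6.79 on the WT arrays, 7.64, 7.49 and 6.81 on those of Rb KO, and 7.30, 7.26 and 7.43 on those of DKO. Rb KO array 3 lay within the WT range while the other mutant arrays lay above it. Laptm5 passed in DKO (0.51, SE 0.171, adjusted p = 0.0465) and missed in Rb KO (0.49, SE 0.171, adjusted p = 0.0599), where it passed without Rb KO array 3 (0.74, adjusted p = 0.000277).

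Cd52, a small surface protein of leukocytes, read 6.13, 5.89 and 5.95 on the WT arrays, 6.36, 6.25 and 5.98 on those of Rb KO, and 6.30, 6.23 and 6.38 on those of DKO. It passed in DKO (0.31, SE 0.106, adjusted p = 0.0465) and not in Rb KO (0.21, adjusted p = 0.197). The DKO call of Laptm5 ended without any WT or DKO array or Rb KO array 2 (adjusted p = 0.0546 to 0.132), and that of Cd52 without WT array 2 or 3, Rb KO array 2 or any DKO array (0.0627 to 0.149). Cd52 passed in Rb KO without Rb KO array 3 (adjusted p = 0.0458). Aif1, the cytoskeletal gene behind the IBA1 stain, Itgam, the integrin CD11b, and Cd14, a co-receptor for endotoxin, passed in neither comparison (-0.03 to 0.39). Itgam stood at 0.32 and 0.39 (SE 0.147, adjusted p = 0.141 and 0.0719).

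C1q is assembled from the products of C1qa, C1qb and C1qc, which lie side by side, and in the brain and retina microglia are its main source. All 3 genes rose in both mutants. C1qb read 7.84, 7.97 and 7.76 on the WT arrays, 9.56, 9.63 and 8.68 on those of Rb KO, and 9.43, 9.21 and 9.70 on those of DKO. Every mutant array lay well above every WT array, and Rb KO array 3 was the lowest of the mutants. The fitted difference was 1.43 (SE 0.218, adjusted p = 0.000827) in Rb KO and 1.60 (SE 0.218, adjusted p = 0.000318) in DKO. WT was above background on 1 of 3 arrays, and against the percentiles the rises were at least 1.13 and 1.29. C1qc read 6.80, 6.96 and 6.86 on the WT arrays, 7.82, 7.83 and 7.35 on those of Rb KO, and 7.74, 7.51 and 7.89 on those of DKO, and rose by 0.79 (SE 0.137, adjusted p = 0.00187) in Rb KO and 0.84 (SE 0.137, adjusted p = 0.000976). C1qa read 7.23, 7.39 and 7.28 on the WT arrays, 7.79, 7.78 and 7.42 on those of Rb KO, and 7.79, 7.63 and 7.78 on those of DKO, and rose by 0.36 (SE 0.105, adjusted p = 0.0287) in Rb KO and 0.43 (SE 0.105, adjusted p = 0.0103). C1qa and C1qc were above background on no array. Between the mutants none of the C1q genes passed, and for C1qb the difference of DKO from Rb KO was 0.16 (95% interval -0.32 to 0.64). The C1qa call in Rb KO ended without WT array 1 or 3 or Rb KO array 1 or 2 (adjusted p = 0.0671 to 0.112).

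Cd68, the lysosomal glycoprotein by which phagocytic microglia are commonly stained, read 7.15, 7.31 and 7.16 on the WT arrays, 8.82, 8.68 and 8.08 on those of Rb KO, and 9.31, 8.78 and 9.46 on those of DKO. No mutant array overlapped WT. It rose by 1.32 (SE 0.200, adjusted p = 0.000805) in Rb KO and 1.98 (SE 0.200, adjusted p = 4.32e-05) in DKO, and DKO exceeded Rb KO by 0.66 without passing (95% interval 0.22 to 1.10, adjusted p = 0.134). Without DKO array 2 that difference passed (adjusted p = 0.0448). Lyz2, the lysozyme of macrophages, read 6.92, 7.12 and 6.85 on the WT arrays, 8.05, 8.19 and 7.43 on those of Rb KO, and 8.59, 7.87 and 8.62 on those of DKO. It rose by 0.93 (SE 0.222, adjusted p = 0.0117) and 1.39 (SE 0.222, adjusted p = 0.000856, at least 1.16-fold), though a probe set for Lyz2 may also read its close paralogue Lyz1. The Lyz2 call in Rb KO ended without Rb KO array 1 or 2 (adjusted p = 0.0557 and 0.0552).

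Tyrobp, the signalling adaptor of TREM2, read 6.45, 6.72 and 6.57 on the WT arrays, 7.47, 7.15 and 6.78 on those of Rb KO, and 7.22, 6.98 and 7.57 on those of DKO. It rose by 0.55 (SE 0.178, adjusted p = 0.0442) and 0.68 (SE 0.178, adjusted p = 0.0152). Its receptor gene Trem2 stood at 0.25 and 0.26 (SE 0.124) and passed in neither (adjusted p = 0.185 and 0.153), and neither did Cybb, the oxidase subunit of the phagosome (0.20 and 0.43, SE 0.161, adjusted p = 0.431 and 0.0707). The Tyrobp call in Rb KO ended without WT array 1 or 3, Rb KO array 1 or 2 or DKO array 1 (adjusted p = 0.0583 to 0.162), and that in DKO without WT array 1 or DKO array 3 (0.055 and 0.0602).

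**Figure D2:**
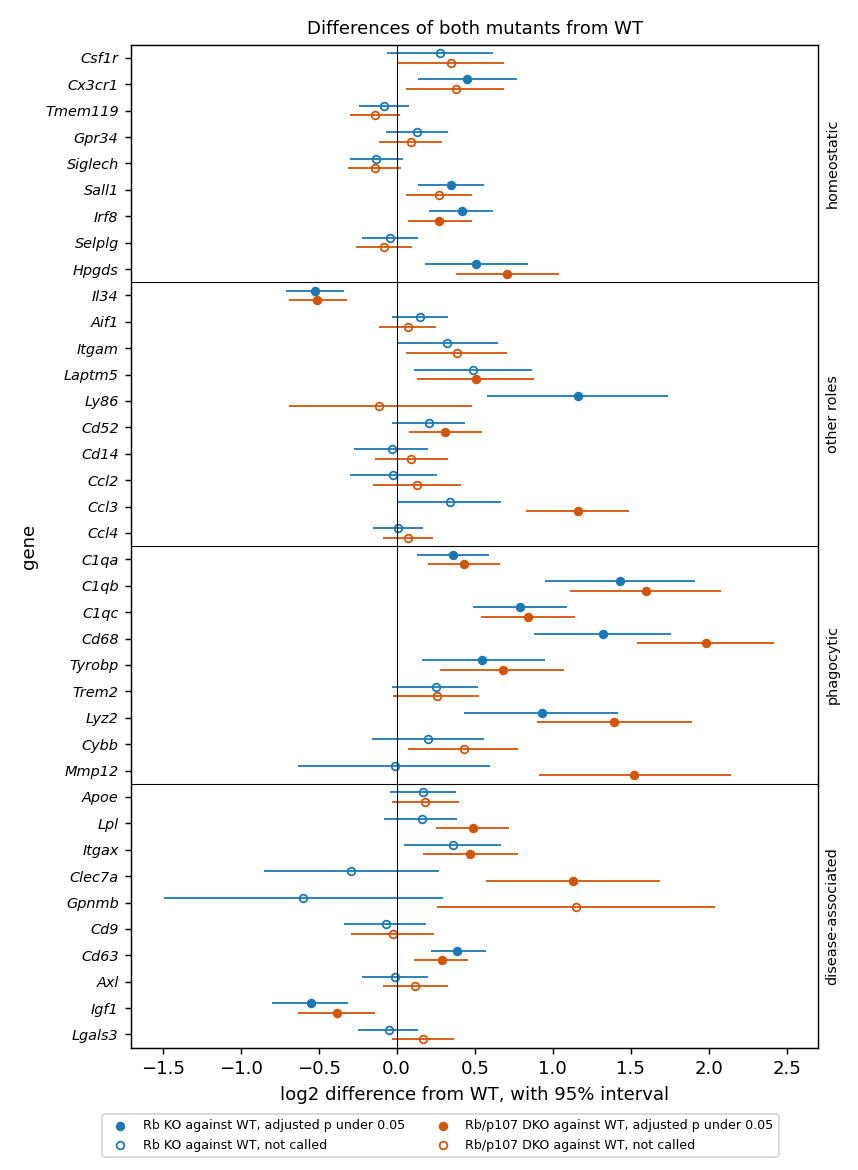
Log2 difference from WT of the 38 genes in Rb KO (blue) and DKO (orange), with the 95% interval of each from the fit to all 9 arrays; filled points passed at an adjusted p under 0.05 and open points did not. The phagocytic genes reach 1.43 in Rb KO and 1.98 in DKO, and the homeostatic genes reach at most 0.51 and 0.71.

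The start regions of C1qb, C1qc and Cd68, called higher in both mutants under all alternatives in which they were tested, were searched for the PU box, the recognition core GAGGAA of the myeloid factor PU.1, on both strands. The 250 bases before each RefSeq start (build GRCm38.p6) are shown in the direction of the gene, with the match in capitals. They are chr4:136886201-136886450 for C1qb, chr4:136892915-136893164 for C1qc and chr11:69666171-69666420 for Cd68, all on the minus strand. The match is on the gene's own strand in C1qb and Cd68 and on the other strand in C1qc.
C1qb: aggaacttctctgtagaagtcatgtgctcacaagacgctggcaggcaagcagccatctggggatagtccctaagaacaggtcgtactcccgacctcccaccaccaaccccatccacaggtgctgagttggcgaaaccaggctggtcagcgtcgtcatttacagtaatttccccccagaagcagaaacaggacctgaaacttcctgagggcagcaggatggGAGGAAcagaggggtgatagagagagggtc
C1qc: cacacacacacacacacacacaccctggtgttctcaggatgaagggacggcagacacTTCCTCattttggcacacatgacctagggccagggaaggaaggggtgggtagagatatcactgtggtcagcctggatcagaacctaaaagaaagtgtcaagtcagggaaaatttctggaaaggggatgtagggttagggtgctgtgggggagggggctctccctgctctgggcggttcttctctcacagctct
Cd68: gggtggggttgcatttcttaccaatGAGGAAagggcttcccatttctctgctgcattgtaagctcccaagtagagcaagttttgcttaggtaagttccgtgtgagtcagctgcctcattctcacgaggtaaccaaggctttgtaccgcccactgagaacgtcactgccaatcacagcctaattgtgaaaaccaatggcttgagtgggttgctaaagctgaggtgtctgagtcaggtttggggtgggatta

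The nearer edge of the match lay 25 bases before the start in C1qb, 188 in C1qc and 220 in Cd68. Of the 38 genes 26 had such a window in RefSeq, 33 windows in all with some genes holding several, and 17 of these (51.5%) held GAGGAA, against 23.3% of 32851 windows of the same length over all genes. By gene, 15 of the 26 had a match in at least 1 window. Lyz2 and Ly86 had none. The E2F motifs TTTCCCGC and TTTGGCGC, searched because Rb restrains E2F factors, were found in 1 of the 33 windows, that of Trem2, against 1.3% of all windows, and the E box CACGTG in 1, that of Siglech, against 6.02%. A match describes the letters of the window and is no evidence of binding.

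Disease-associated genes are those that microglia switch on near damaged neurons. Of 10 measured, 1 rose and 1 fell in Rb KO, no more than the 10.2% and 14.3% of all genes, and 4 rose and 1 fell in DKO, where 12.2% and 17.1% of all genes did. Lpl, a lipase that releases fatty acids, read 7.39, 7.39 and 7.26 on the WT arrays, 7.55, 7.61 and 7.34 on those of Rb KO, and 8.02, 7.64 and 7.82 on those of DKO. All DKO arrays lay above all others. Lpl rose in DKO (0.49, SE 0.107, adjusted p = 0.00591) and did not pass in Rb KO (0.16, SE 0.107, adjusted p = 0.333) or between the mutants (0.33, adjusted p = 0.169). Itgax, which encodes the integrin CD11c, read 5.93, 5.64 and 5.81 on the WT arrays, 6.23, 6.26 and 5.96 on those of Rb KO, and 6.52, 5.97 and 6.31 on those of DKO. It passed in DKO (0.47, SE 0.140, adjusted p = 0.0262) and not in Rb KO (0.36, adjusted p = 0.0866), except without DKO array 2 (0.0455). The DKO call ended without WT array 2 or 3 or DKO array 1 or 3 (adjusted p = 0.0561 to 0.108).

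Cd63, a tetraspanin of late endosomes, was above background on every array. It read 10.42, 10.36 and 10.22 on the WT arrays, 10.72, 10.82 and 10.64 on those of Rb KO, and 10.65, 10.58 and 10.65 on those of DKO. Cd63 rose 1.31-fold in Rb KO (0.39, SE 0.079, adjusted p = 0.00462) and 1.22-fold in DKO (0.29, SE 0.079, adjusted p = 0.0187), the latter not without WT array 3 or DKO array 1 or 3 (adjusted p = 0.0582 to 0.0707). Igf1, a growth factor that neurons and glia also make, went the other way. It read 7.86, 8.05 and 7.95 on the WT arrays, 7.36, 7.28 and 7.57 on those of Rb KO, and 7.34, 7.69 and 7.68 on those of DKO, with no overlap between WT and either mutant. Rb KO and DKO were not above background, and WT was on 1 array, array 2, which had the lowest percentile of all arrays. Igf1 fell by 0.55 (SE 0.112, adjusted p = 0.00455) and by 0.38 (SE 0.112, adjusted p = 0.025), the latter not without WT array 2 or 3 or DKO array 1 (adjusted p = 0.0554 to 0.106).

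Apoe and Cd9, which Muller glia also express strongly, did not pass. Apoe, the lipid carrier, read 10.37, 10.53 and 10.28 on the WT arrays, 10.67, 10.64 and 10.38 on those of Rb KO, and 10.60, 10.61 and 10.53 on those of DKO, differences of 0.17 and 0.18 (SE 0.097, 95% intervals -0.04 to 0.38 and -0.03 to 0.40). Cd9, another tetraspanin, read 9.63, 9.68 and 9.48 on the WT arrays, 9.30, 9.67 and 9.61 on those of Rb KO, and 9.44, 9.50 and 9.78 on those of DKO, differences of -0.07 and -0.02 (SE 0.119). Muller glia and astrocyte markers, 11 measured, summed to 13.57 to 13.79 in WT, 13.18 to 13.3 in Rb KO and 13.29 to 13.41 in DKO on the log2 scale, with 6 falling and 1 rising in Rb KO and 5 falling and 2 rising in DKO. Among all genes 14.3% fell and 10.2% rose in Rb KO, and 17.1% fell and 12.2% rose in DKO. The part of the shift in glial markers in Apoe, Cd9 and Cd63 was not tested. Axl, a receptor for dying cells, and Lgals3, galectin-3, passed in neither comparison (-0.05 to 0.17).

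Between the mutants 3 of the 38 genes were higher in DKO, 1 was lower and 34 did not pass. Among all genes 1.34% were higher and 1.21% lower, 2.54% in all. Of the 29 genes above background on no mutant array 3 were higher (10.3%), against 0.809% of all such genes. Of the 9 others 0 were higher and 1 was lower (11.1%), against 2.44% and 2.38%. Mmp12, the macrophage elastase, read 4.36, 4.43 and 4.35 on the WT arrays, 4.32, 4.32 and 4.45 on those of Rb KO, and 6.13, 5.05 and 6.53 on those of DKO. Rb KO lay within hundredths of WT, and all DKO arrays lay above both. The difference of DKO was 1.54 from Rb KO (SE 0.280, adjusted p = 0.0174) and 1.52 from WT (SE 0.280, adjusted p = 0.00205). Clec7a, the beta-glucan receptor Dectin-1, read 5.10, 5.42 and 5.95 on the WT arrays, 5.30, 5.40 and 4.89 on those of Rb KO, and 7.05, 6.69 and 6.11 on those of DKO. Again all DKO arrays lay above all others, by 1.42 from Rb KO (SE 0.253, adjusted p = 0.0155) and 1.13 from WT (SE 0.253, adjusted p = 0.00665). Neither gene was above background on any array, so these are differences between readings.

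Ccl3, a chemokine that draws in monocytes, read 6.37, 6.20 and 6.35 on the WT arrays, 6.67, 6.63 and 6.64 on those of Rb KO, and 7.46, 7.09 and 7.85 on those of DKO. The 3 groups did not overlap, with Rb KO between the others. DKO exceeded Rb KO by 0.82 (SE 0.151, adjusted p = 0.0181) and WT by 1.16 (SE 0.151, adjusted p = 0.000232), while Rb KO did not pass against WT (0.34, SE 0.151, adjusted p = 0.134), except without DKO array 2 or 3 (0.0428 and 0.0404) or with the arrays of those groups alone (0.0243). Ccl2 and Ccl4, chemokines of the same class, passed in none of the comparisons (-0.02 to 0.15). Ly86 was the gene lower in DKO than in Rb KO, by 1.27 (SE 0.265, adjusted p = 0.0318), or at least 1.43-fold.

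Gpnmb, a lysosomal glycoprotein of lipid-laden phagocytes that pigment cells also make, is named here after its values were seen. It read 7.21, 7.40 and 7.53 on the WT arrays, 6.90, 6.68 and 6.77 on those of Rb KO, and 8.66, 7.36 and 9.57 on those of DKO. DKO array 2 lay within the WT range and the other DKO arrays far above it. WT and Rb KO were above background on no array and DKO on 2. The difference between readings was 1.74 from Rb KO (SE 0.404, adjusted p = 0.0504) and 1.15 from WT (SE 0.404, adjusted p = 0.0546), of which 0.14 and 0.38 lay above the percentiles. Without DKO array 2 both passed (2.33, adjusted p = 0.000828, and 1.73, adjusted p = 0.000326), and with array weights that from Rb KO did (0.0337). Against WT, Rb KO stood at -0.60 (adjusted p = 0.337), which passed with the arrays of those groups alone (0.00424). Pigment epithelium markers, 9 measured, summed to 11.36 to 11.78 in WT, 10.14 to 10.35 in Rb KO and 9.87 to 10.18 in DKO, and 8 of the 9 fell in each mutant. Among all genes 14.3% fell in Rb KO and 17.1% in DKO. The part of the pigment epithelium markers in the Gpnmb values was not tested.

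**Figure D3:**
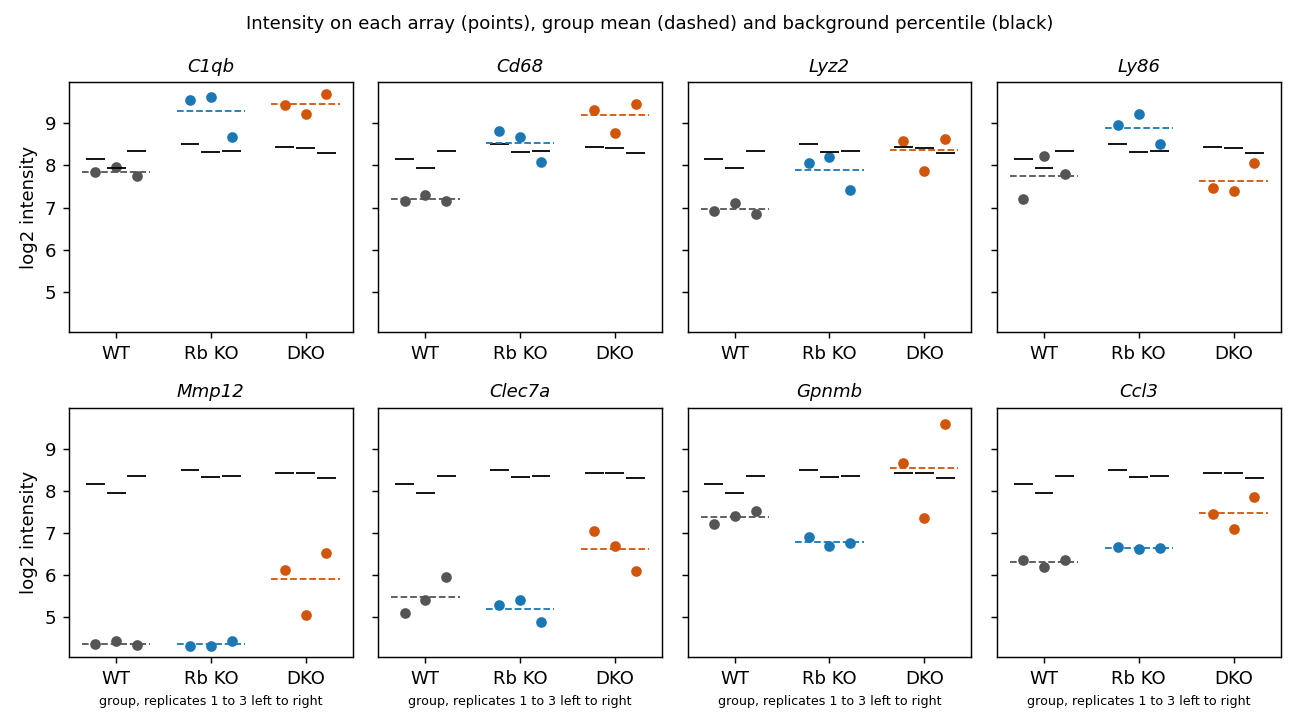
Log2 intensity of 8 genes on each array (points, arrays 1 to 3 from left to right), with group means (dashed lines) and each array's background percentile from its negative controls (short black lines). C1qb, Cd68 and Lyz2 are higher in both mutants, Ly86 in Rb KO alone, and Mmp12, Clec7a and Ccl3 are highest in DKO, all 3 under the black lines throughout.

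The calls between the mutants depended on single arrays. Mmp12 and Ccl3 did not pass without any Rb KO array or DKO array 1 (adjusted p = 0.0516 to 0.0824 and 0.0518 to 0.0733), Clec7a without Rb KO array 1 or 3 or DKO array 1 (0.057 to 0.0702), and Ly86 without WT array 3, Rb KO array 1 or 2 or DKO array 1 or 2 (0.0579 to 0.13). The log2 differences kept their direction, at 1.22 to 1.97 for Mmp12, 1.20 to 1.67 for Clec7a, 0.63 to 1.01 for Ccl3 and -1.48 to -1.10 for Ly86.

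The start regions of the genes higher in DKO than in Rb KO each held a PU box in the 250 bases before a RefSeq start, and are shown in the same way. Mmp12, whose other start region in RefSeq had no match, is shown at chr9:7344147-7344396 on the plus strand, Clec7a at chr6:129472780-129473029 and Ccl3 at chr11:83649379-83649628, both on the minus strand. The match is on the gene's own strand in Clec7a and on the other strand in Mmp12 and Ccl3, with its nearer edge 81 bases before the start in Mmp12, 91 in Clec7a and 28 in Ccl3.
Mmp12: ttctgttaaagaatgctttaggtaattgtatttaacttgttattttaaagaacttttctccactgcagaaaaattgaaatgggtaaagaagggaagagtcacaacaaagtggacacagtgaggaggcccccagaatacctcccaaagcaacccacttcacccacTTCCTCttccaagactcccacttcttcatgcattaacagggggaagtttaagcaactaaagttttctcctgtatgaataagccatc
Clec7a: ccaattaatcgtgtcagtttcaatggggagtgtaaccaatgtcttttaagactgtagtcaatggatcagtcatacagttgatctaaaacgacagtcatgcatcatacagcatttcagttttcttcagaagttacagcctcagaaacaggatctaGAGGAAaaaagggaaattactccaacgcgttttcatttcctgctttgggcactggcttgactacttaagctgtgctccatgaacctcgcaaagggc
Ccl3: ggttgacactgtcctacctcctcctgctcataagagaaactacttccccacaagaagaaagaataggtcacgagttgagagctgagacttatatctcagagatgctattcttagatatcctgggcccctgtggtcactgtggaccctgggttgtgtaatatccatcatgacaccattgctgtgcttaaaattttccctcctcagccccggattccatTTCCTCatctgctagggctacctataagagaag

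The homeostatic, phagocytic and disease-associated subsets were then set side by side. In Rb KO 4 of 9 homeostatic genes rose (Csf1r counted with them), 6 of 9 phagocytic and 1 of 10 disease-associated genes, with median log2 differences of 0.28, 0.55 and -0.03. In DKO 2 of 9, 7 of 9 and 4 of 10 rose, with medians of 0.27, 0.84 and 0.24. Among all genes 10.2% rose in Rb KO and 12.2% in DKO, with medians of -0.05 and -0.06. The homeostatic genes that rose were above background on no array. From Rb KO to DKO the medians were -0.04 for homeostatic, 0.16 for phagocytic, 0.15 for disease-associated and 0.0 for all genes. The difference between subsets was not tested. The medians are those of readings, most of them below background.

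Within the mutant groups the same arrays were lowest for many of the genes. Rb KO array 3 gave the lowest of the Rb KO readings for 27 of the 38 genes, against 35.1% of all genes, and for 11 of the 12 genes that rose. DKO array 2 was lowest of the DKO arrays for 29 of the 38, against 39.6% of all genes, and for 15 of the 16 that rose, while DKO array 3 was highest for 26 (33.7% of all genes). DKO array 2 is also the array that stood apart in Xist and lens markers. Whether what sets it apart has a part in its low readings was not tested. Over the phagocytic genes, the median difference from the WT mean was 0.89, 0.57 and 0.20 on those of Rb KO and 0.87, 0.64 and 1.02 on the DKO arrays, against -0.04, 0.09 and -0.02 in WT. Every mutant array thus lay above every WT array in this median. The disease-associated genes had medians of 0.06, 0.07 and -0.09 on the Rb KO arrays and 0.26, 0.14 and 0.30 on the DKO arrays, against 0.02, 0.03 and -0.09 in WT.

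**Figure D4:**
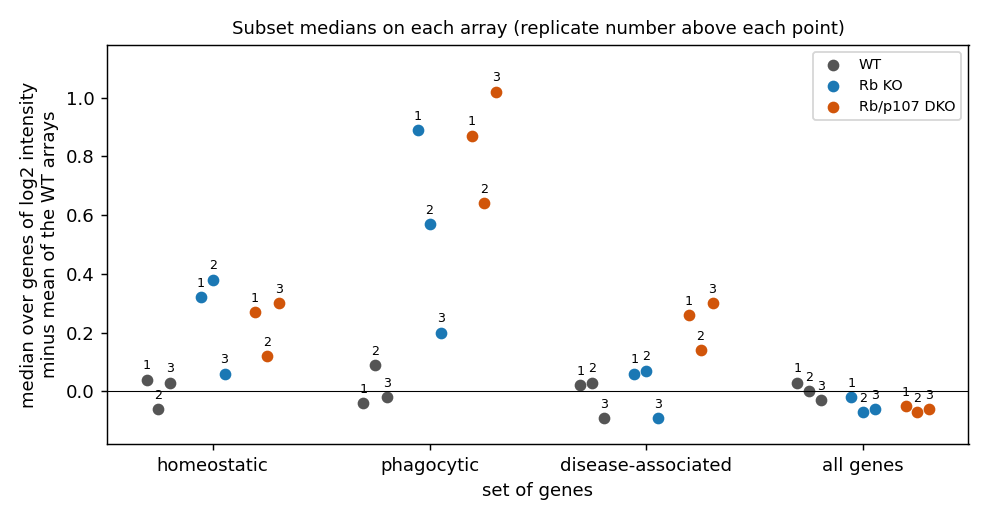
Median over the genes of a subset, on each array, of the log2 intensity minus the mean of the WT arrays, by group (colours) and array number (above the points), beside all 24259 genes. The phagocytic median is above WT on all 6 mutant arrays, lowest at 0.20 on Rb KO array 3, and the disease-associated median is above the other arrays in DKO only.

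Without Rb KO array 3, 16 of the 38 genes rose in Rb KO against WT, and without DKO array 2, 18 rose in DKO against WT, with 2 falling in each. Counts of genes that rose in Rb KO dropped to 7 without Rb KO array 1, 6 without Rb KO array 2 and 8 without WT array 1. The genes called in either direction over all genes dropped too, from 5923 to 4602, 4043 and 4405 in the same fits. Without Rb KO array 3 they were 5174. In DKO the members that rose dropped to 10 without DKO array 3 and to 11 without WT array 3 or DKO array 1. Between the mutants, no gene passed without Rb KO array 1 or DKO array 1, 1 was higher without Rb KO array 2, 1 was lower without Rb KO array 3, and 5 were higher without DKO array 2.

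Other genes of these pathways were read from lists fixed beside the 39. Of 43 measured microglia and macrophage genes outside the 39, 9 rose (20.9%) and 2 fell in Rb KO and 16 rose (37.2%) and 3 fell in DKO, where 10.2% and 12.2% of all genes rose. Of these genes 37 of the 43 were above background on no array. Lilrb4a, an inhibitory receptor of activated myeloid cells, read 6.28, 5.77 and 6.08 on the WT arrays, 6.97, 7.34 and 6.92 on those of Rb KO, and 8.31, 7.63 and 9.57 on those of DKO. The 3 groups did not overlap. Only DKO array 3 was above background. It rose in DKO (2.46 between readings, SE 0.373, adjusted p = 0.00062, at least 0.36 on the log2 scale), did not pass in Rb KO (1.03, SE 0.373, adjusted p = 0.0677) except without DKO array 2 or 3 (0.0211 and 0.00355) or with the arrays of those groups alone (0.00113), and its probe set may also read the close copy Lilr4b. Csf2ra, the receptor chain for GM-CSF, rose by 0.67 (SE 0.097, adjusted p = 0.000593) and 0.78 (adjusted p = 0.000178), and Tgfbr1, a receptor through which TGF-beta keeps microglia homeostatic but which other cells share, by 0.45 (adjusted p = 0.00339) and 0.54 (adjusted p = 0.000935). Ifngr1, the interferon gamma receptor, fell by 0.57 (SE 0.102, Rb KO above background on 1 array) and 0.79 (DKO not above background, at least 0.42), and Mef2a, a factor that neurons also express, by 0.33 (SE 0.081) and 0.37.

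Phagocyte receptor signalling had 18 genes, of which 17 were above background on no array. It gave 2 rises in Rb KO (11.1%), and 4 rises (22.2%) with 1 fall in DKO. Among all genes 10.2% rose in Rb KO, and 12.2% rose and 17.1% fell in DKO. Among all genes above background on no array of these comparisons, 5.53% rose and 8.49% fell in Rb KO. In DKO 6.62% of such genes rose and 11.1% fell. Dock1, a partner of ELMO in engulfment that many cells express, was the exception in signal among the 18. It stood at 0.47 (SE 0.130, adjusted p = 0.023) and 0.65 (adjusted p = 0.00346), the former not without WT array 1 or 3 or Rb KO array 1 or 2 (adjusted p = 0.0619 to 0.0933). For Dock1 WT was above background on 1 array, so both are differences between readings. Among 13 other complement genes, 12 of them above background on no array, 1 rose and 1 fell in each mutant (7.69%). These shares were below those of all genes. A rise of 1 gene in each mutant is near the 5.53% and 6.62% among genes above background on no array. Clu, the complement inhibitor clusterin, which is a Muller glia gene in retina, fell by 1.30 (SE 0.156, adjusted p = 0.000186) and 1.40 (adjusted p = 8.4e-05). Of 27 other chemokines, cytokines and ligands, 24 were above background on no array. In Rb KO 2 rose (7.41%) and 4 fell (14.8%), and in DKO 2 rose and 1 fell (3.7%), near or below the shares of all genes. Against genes above background on no array, the Rb KO rises were near the share. The Rb KO falls were above it, but they include Cx3cl1 and Cxcl14, which were above background in WT. In DKO the rises were near the share of such genes and the falls below it. Cx3cl1, the neuronal ligand of CX3CR1, fell in Rb KO (-0.53, SE 0.096, adjusted p = 0.00241), with WT above background on 1 array and Rb KO on none, and did not pass in DKO (-0.15, adjusted p = 0.263). Cxcl14 fell in Rb KO (-0.69, SE 0.125, adjusted p = 0.00251), where it was above background on 1 array. Mif rose in DKO (0.41, SE 0.121, adjusted p = 0.0263), not without WT array 1 or 3 or DKO array 1 or 3 (adjusted p = 0.0573 to 0.095).

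Engulfment receptors, bridging proteins and lysosomal genes, 37 measured and 11 of them above background on no array, gave 5 rises (13.5%) and 9 falls (24.3%) in Rb KO and 7 of each (18.9%) in DKO, with medians of -0.03 in both. Among all genes above background on at least 1 array of these comparisons, 17.8% rose and 23.8% fell in Rb KO, and 21.3% rose and 26.9% fell in DKO, so these shares are near the background. Gas6, a ligand of MERTK and AXL, fell by 1.17 (SE 0.115, adjusted p = 4.68e-05) and 0.99 (adjusted p = 0.000108), and Mfge8, a bridge to integrins, by 0.67 (SE 0.103, adjusted p = 0.000921) and 0.50 (adjusted p = 0.00407). Pros1, the other MERTK ligand, rose by 0.52 (SE 0.117, adjusted p = 0.00811) and 0.63 (adjusted p = 0.00228) between readings. For Pros1 neither WT nor DKO was above background on any array, and Rb KO was on 1. Plin2, which coats lipid droplets, rose by 0.49 (SE 0.131, adjusted p = 0.0191) in Rb KO, not without WT array 1 or 3 or Rb KO array 1 or 2 (adjusted p = 0.0581 to 0.075), and by 1.03 (SE 0.131, adjusted p = 0.000206) in DKO. For Plin2 WT was above background on 1 array, so both are differences between readings. Abca1, a cholesterol exporter, rose in Rb KO (0.51, SE 0.107, adjusted p = 0.00539) and not in DKO (0.17, adjusted p = 0.284), and its relative Abcg1 fell in DKO (-0.52, SE 0.098, adjusted p = 0.00239) and was lower than in Rb KO (-0.65, adjusted p = 0.00616). Lrp1, an endocytic receptor, rose by 0.53 (SE 0.129, adjusted p = 0.0126) and 0.49 (adjusted p = 0.0153), the latter not without WT array 1 or DKO array 1 (adjusted p = 0.0574 and 0.0636). Megf10, an engulfment receptor of glia, rose in DKO (0.40, SE 0.121, adjusted p = 0.0294), not without WT array 1 or 3 or DKO array 1 or 3 (0.0885 to 0.124) and not with the arrays of those groups alone (0.0658). Ctsh, a lysosomal protease, fell in Rb KO (-0.95, SE 0.158, adjusted p = 0.00147), with Rb KO not above background and WT above it on 1 array. Scarb1, a lipoprotein receptor, fell in Rb KO (-0.55, SE 0.105, adjusted p = 0.00326) and DKO (-0.82, adjusted p = 0.000221).

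Markers of other blood cells were read in the same arrays. All 9 neutrophil, 13 T and NK cell and 6 B cell markers measured were above background on no array, and of the T and NK cell markers 1 rose and 1 fell in Rb KO, 2 fell in DKO and 1 was lower in DKO than in Rb KO. Among all genes above background on no array of these comparisons, 5.53% rose and 8.49% fell in Rb KO, and 11.1% fell in DKO. Between the mutants 0.651% of such genes were lower in DKO. The marker sums on the log2 scale were 8.91 to 9.15 in WT, 8.92 to 9.01 in Rb KO and 8.93 to 8.96 in DKO for neutrophils, and 9.38 to 9.51, 9.3 to 9.46 and 9.27 to 9.33 for T and NK cells. Of 13 perivascular macrophage and monocyte markers none rose and 3 fell (23.1%) in Rb KO, and 1 rose (7.69%) and 4 fell (30.8%) in DKO. Their sums were 10.45 to 10.68, 10.07 to 10.23 and 10.11 to 10.4. Of these 13 markers 11 were above background on no array. Among all genes 10.2% rose and 14.3% fell in Rb KO, and 12.2% rose and 17.1% fell in DKO. Lyve1, which lymphatic and perivascular cells express, was lower in Rb KO (-1.65, SE 0.306, adjusted p = 0.00274) and DKO (-1.08, adjusted p = 0.0221). It was not above background in either mutant, so the falls were at least 0.14 and 0.15 on the log2 scale. The only mast cell marker above background was Kit, which other cells express too. It rose by 0.86 (SE 0.141, adjusted p = 0.00128) and 1.18 (adjusted p = 0.000135).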

How the data were processed

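The deposited values are log2 intensities of 9 Affymetrix whole-transcript arrays, summarised per probe set by RMA per the submitters' processing notes. Neither a software version nor a genome build for the annotation was given in the sources used here. In all, the table held 59649 probe sets, 6732 of them controls. Symbols came from the platform annotation and were updated through a RefSeq table of GRCm38.p6 (660 updated). Where several probe sets shared a symbol the brightest stood for the gene, giving 24259 genes; each measured member had 1 probe set. Precision is limited by the 3 arrays per group.

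Groups were compared with limma 3.58.1 in R 4.3.3, fitted to all 9 arrays (6 residual and 4.69 prior degrees of freedom). P-values were adjusted by Benjamini-Hochberg across all 24259 genes, and SE and 95% intervals are from the moderated fit. The script was tested on simulated data. Alternatives were renewed quantile normalization, median centring, the mean of probe sets, a filter on dim genes, eBayes with trend and robust, array weights, fits to the 2 groups compared, the replicate number as a block, and leaving out each array. The members, lists and subsets were chosen with earlier results of these data known, and the background percentile likewise. Described in full are members called in any comparison or above background on at least 1 array of every group, and from each further list up to 3 genes per direction with the lowest p among called genes above background in at least 1 group. Promoter sequences are from RefSeq. Figures used matplotlib 3.10.9 under Python 3.11.15.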

Additional observations from a re-analysis of the deposited data

How the results depend on the processing

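Of the 14 calls in Rb KO against WT, 8 held under all alternatives in which the gene was tested (Il34, Irf8, Ly86, C1qb, C1qc, Cd68, Cd63 and Igf1). Of the 18 in DKO against WT, 11 did (Il34, Hpgds, C1qa, C1qb, C1qc, Cd68, Lyz2, Mmp12, Lpl, Clec7a and Ccl3), and of the 4 between the mutants 0 did. No called difference changed sign. Calls ended under settings other than left-out arrays for Hpgds (0.054) and Tyrobp (0.0579) in Rb KO with renewed quantile normalization, for Cx3cr1 (0.0846) and Tyrobp (0.0835) with array weights, and for C1qa (0.0566) with the 2 groups alone. In DKO they ended for Irf8 (0.0552), Laptm5 (0.0595) and Cd52 (0.0522) with quantile normalization, for Irf8 (0.0516) with the 2 groups alone and for Igf1 (0.0501) with array weights. The call of Ly86 between the mutants ended with trend and robust (0.0616). With array weights Cd68 (0.0458) and Gpnmb (0.0337) passed between the mutants, and with the 2 groups alone Cx3cr1 passed in DKO (0.0343) and Ccl3 (0.0243), Gpnmb (0.00424) and Lilrb4a (0.00113) in Rb KO.

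With dim genes left out, 7 members remained, of which 4, 3 and 1 were called in the 3 comparisons, 4330 genes were called in DKO against WT, the phagocytic medians became 1.38, 1.79 and 0.41, and the disease-associated median in Rb KO 0.17, because fewer genes entered. Array weights gave 1351 genes called between the mutants and a disease-associated median of 0.01 in Rb KO; the cause was not tested. Leaving out each array gave members called of 8 to 18 in Rb KO, 12 to 21 in DKO and 0 to 5 between the mutants. Over the same fits 253 to 859 genes were called between the mutants. The medians in Rb KO were 0.16 to 0.42 for homeostatic and -0.07 to 0.03 for disease-associated genes, and between the mutants -0.05 to 0.29 for phagocytic genes.

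Replicate numbers are shared between groups, but same-numbered arrays correlated at -0.162 to 0.145 in their deviations from the group means, so the numbers were not taken as pairs. With the replicate number as a block 12, 17 and 5 members and 5453, 6666 and 501 genes were called, and the calls of Cx3cr1 (0.0546) and Tyrobp (0.0696) in Rb KO and of Irf8 (0.05) and Laptm5 (0.0509) in DKO ended, as did that of Megf10 in DKO (0.0502), while Gpnmb passed against WT (0.0371) and Rb KO (0.0422) and Ctsh against WT (0.0409) and Rb KO (0.0321) in DKO. Low signal, with 27 of 38 members above background on no array, limits every size given.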
